A study of Mus musculus with 4 samples.

Results

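Klf2, Klf4 and Klf5 encode Krüppel-like factors, zinc finger proteins that bind GC-rich and CACCC sequences and together hold mouse embryonic stem cells in the naive state. Klf4 is known as a target of LIF and STAT3 signalling, and stem cell enhancers of Klf4 are known to lie downstream of the gene. Klf2 is known to respond to inhibition of MEK in 2i medium, and Klf5 shares many of its binding sites with the other two. Accessible chromatin was described here in the span of each gene plus 100 kb either side. Peaks of the 4 libraries sharing 1 bp or more formed a region, and 114 of the 170898 regions of the genome lay in these windows. The Klf2 window held 37, the Klf4 window 30 and the Klf5 window 47.

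The cells were 2TS22C mouse embryonic stem cells, a line in which doxycycline is known to switch Sox2 off, and ATAC-seq, in which a transposase inserts adapters into open DNA, was run on them. Both groups had their own Sox2 silenced, received DOX and grew in medium with 2i, serum and LIF. One group was transduced with a lentivirus for SOX17FNV, an engineered form of the endoderm factor SOX17, and the other with a lentivirus for SOX2. Each group had 2 libraries, labelled biological replicates of this 1 line, and the labels do not say whether they were transduced separately, so the spread may be technical.

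The signal of a region is its highest summit pileup, the number of overlapping fragments or extended reads at the peak's top. It was divided by the library's median over autosomal regions called in all 4 libraries, here named shared regions. These medians were 33 and 24 in SOX17FNV replicates 1 and 2 and 35 and 28 in SOX2 replicates 1 and 2. The result is called the relative pileup, and a log2 ratio is the mean log2 relative pileup of the SOX17FNV libraries minus that of the SOX2 libraries. The percentile of a region is the rank of its best q-value within 1 library's list. The windows held 89 and 74 peaks with SOX17FNV and 91 and 75 in the SOX2 libraries, so replicate 1 had the longer list in either group. A gene end lay within 1 kb of a peak for 7 of 7 stem cell genes, 4 of 6 fibroblast genes and 3 of 5 endoderm genes in every library, against 67.6% to 70.7% of protein-coding genes. With 2 libraries against 2, an exact permutation test cannot give a p below 0.333.

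The 250 bases before the starts of Klf2 and Klf4 are shown because they lie wholly inside regions called in all 4 libraries. They come from RefSeq on GRCm38.p6, the build whose chromosome coordinates are those of mm10, and read 5′ to 3′ along the gene. The Klf2 stretch is chr8:72318812-72319061 on the plus strand and the Klf4 stretch chr4:55532476-55532725 on the minus strand. Capitals mark matches, on both strands, to the GC box GGGCGG bound by SP and KLF factors, to the box CACCC of KLF factors and to the MEF2 consensus.

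Klf2: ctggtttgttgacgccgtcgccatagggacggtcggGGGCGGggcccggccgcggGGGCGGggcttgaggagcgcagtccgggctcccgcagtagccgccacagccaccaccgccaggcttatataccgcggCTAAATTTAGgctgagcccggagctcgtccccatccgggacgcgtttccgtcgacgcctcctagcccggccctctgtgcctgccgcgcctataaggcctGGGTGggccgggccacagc

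Klf4: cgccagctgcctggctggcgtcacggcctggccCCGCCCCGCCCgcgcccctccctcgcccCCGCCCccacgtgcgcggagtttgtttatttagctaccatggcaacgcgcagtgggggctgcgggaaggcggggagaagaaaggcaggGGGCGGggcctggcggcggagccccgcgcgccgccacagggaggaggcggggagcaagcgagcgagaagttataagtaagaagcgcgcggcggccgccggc

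Both stretches are GC-rich, with 71.2% G or C before Klf2 and 74% before Klf4. The GC box matched 2 times before Klf2 and 4 times before Klf4, where a pair of matches share a base, and 32.7% of the 32851 RefSeq windows of this length hold at least 1. The CACCC box matched once before Klf2 and not before Klf4, against 52% of windows. The MEF2 consensus matched once before Klf2 and is held by 2.92% of windows. Neither stretch held the SOX core ACAAT, found in 27.7% of windows, or the octamer ATGCAAAT, found in 1.60%. A match is a run of letters and not a bound site.

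Klf2 and Klf4 had a region called in every library over their RefSeq start. For Klf5 the region taken lies over the gene end at 99298691 and was picked as the one near a gene end that most libraries called, so its calls were fixed by that choice. At Klf2 (chromosome 8, gene span 72319062 to 72321654) this region lay at 72318676 to 72319521, with pileups of 85 and 66 with SOX17FNV and 72 and 74 with SOX2. Its relative pileups were 2.58 and 2.75 against 2.06 and 2.64, and the groups overlapped. At Klf4 (chromosome 4, 55527137 to 55532475) the region lay at 55532424 to 55533612, with pileups of 57 and 39 against 53 and 50. The relative pileups of 1.73 and 1.62 lay between those of the SOX2 libraries, 1.51 and 1.79. At Klf5 (chromosome 14, 99298691 to 99313412) the region lay at 99298252 to 99299374, with pileups of 101 and 76 against 70 and 78. Its relative pileups were 3.06 and 3.17 against 2.00 and 2.79, so both SOX17FNV libraries were the higher ones.

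The order of the start regions was Klf5, Klf2 and Klf4 in both groups. The means were 3.11 ± 0.0750, 2.66 ± 0.123 and 1.68 ± 0.0723 in SOX17FNV libraries and 2.39 ± 0.556, 2.35 ± 0.414 and 1.65 ± 0.192 in SOX2 libraries (SD, n = 2). In the SOX2 libraries Klf5 and Klf2 differed by less than their spread. The log2 ratios between groups were 0.19 at Klf2 (exact permutation p = 0.667), 0.03 at Klf4 (exact p = 1) and 0.40 at Klf5 (exact p = 0.333, the smallest possible). The SD between libraries on the log2 scale was 0.19, 0.13 and 0.24 in the same order, and the groups overlapped at Klf2 and Klf4. All 3 values moved with the measure and with the libraries used. From fold enrichments they were 0.41, 0.24 and -0.040, and with SOX2 replicate 1 left out -0.042, -0.14 and 0.11. With SOX2 replicate 2 left out they were 0.32, 0.092 and 0.58. With SOX17FNV replicate 2 left out Klf2 gave 0.12 and Klf4 0.043, and with SOX17FNV replicate 1 left out Klf4 gave -0.064. With pileups scaled to the shared regions of chromosome 14, the Klf5 log2 ratio was 0.027 and the groups overlapped.

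**Figure D1:**
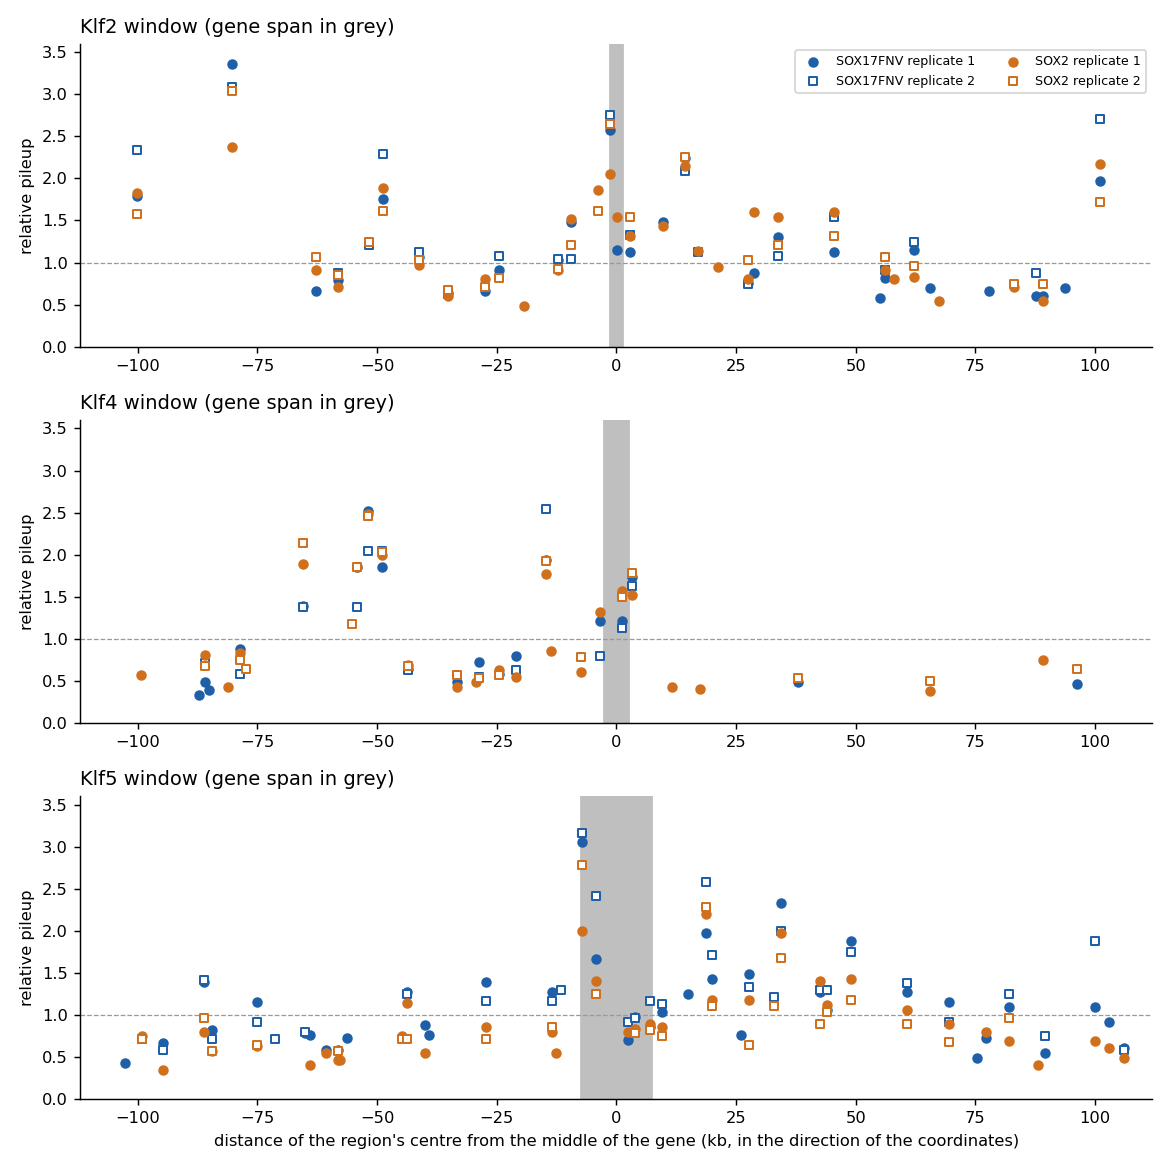
Relative pileup (y axis, 1 is the library's median shared region) of every region a library called, against the distance of the region from the middle of the gene in kb (x axis), for the windows of Klf2, Klf4 and Klf5. Filled circles are replicate 1 and open squares replicate 2, blue SOX17FNV and orange SOX2. Every Klf4 region above 1 lies at the gene or downstream of it (left of the grey gene span), and the highest value upstream is 0.743.

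Few regions of the windows were called in 1 group alone. Of the 114 regions, 48 (42.1%) were called in all 4 libraries, against 33.8% of all regions of the genome. There were 3 SOX17FNV-only regions (2.63%), called in both SOX17FNV libraries and neither SOX2 library, against 3.06% of all regions. There were 5 SOX2-only regions (4.39%), against 4.09%. Both shares were near those of the whole genome. A further 30 regions were called in a single library, 26 of them in a replicate 1 library. Both group-specific counts were larger with any library left out. Leaving out a library drops a condition that such a region must meet, so this rise follows from the definition. Leaving out SOX17FNV replicate 1 gave 6 SOX17FNV-only and 12 SOX2-only regions, and leaving out SOX17FNV replicate 2 gave 15 and 6. Leaving out SOX2 replicate 1 gave 9 and 9, and leaving out SOX2 replicate 2 gave 5 and 19.

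The strongest of the 8 group-specific regions was SOX2-only and lay 2310 bp before the start of Klf2, at 72316163 to 72316752 on chromosome 8. Its pileups were 65 and 45 in SOX2 replicates 1 and 2, relative pileups of 1.86 and 1.61, and it stood at the percentiles 73.1 and 58.6 of their lists. No SOX17FNV peak touched it. The nearest summits of those libraries, 2552 and 2522 bp away in the start region, had local backgrounds of 18.1 and 14.1. With these backgrounds, the smallest pileup that could have been called was 32 and 27, or 0.970 and 1.12 in relative units. The SOX2 values lay above both limits, which are approximate because the background was read at a neighbouring summit. The region was chosen by these same calls, so this is not separate evidence of a difference. The -log10 q of the region was 10.4 in SOX2 replicate 1 and 4.90 in SOX2 replicate 2, so a threshold of 5 removed it from the SOX2-only regions.

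The other group-specific regions were weaker. The Klf2 window had a second SOX2-only region inside Eps15l1, an endocytosis gene, 81.5 kb from Klf2 at 72403167 to 72403789, with pileups of 25 and 21. It also had a SOX17FNV-only region in the same gene at 72407834 to 72408411, with pileups of 20 and 21. The Klf4 window had no SOX17FNV-only region. Its SOX2-only regions lay 4559 bp beyond the 3′ end at 55522344 to 55522578, with pileups of 21 and 22, and 62.6 kb upstream of the start at 55595122 to 55595406, with 13 and 14. The Klf5 window had SOX17FNV-only regions inside Pibf1, a centrosome gene, at 99240761 to 99241280, with pileups of 26 and 19, and 82.0 kb above Klf5 at 99395415 to 99395732, with 18 and 18. Its SOX2-only region lay at 99261075 to 99261276, with pileups of 26 and 20.

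For 4 of these 8 regions both calling libraries had relative pileups above the smallest callable level of both other libraries. These were both SOX2-only regions of the Klf2 window and both SOX17FNV-only regions of the Klf5 window. With pileups and limits scaled within the chromosome, 4 of 8 were again above, but not the same 4. The SOX17FNV-only region 82.0 kb from Klf5 then fell short, with 0.48 and 0.643 against limits of 0.419 and 0.56, and the SOX2-only region of the Klf5 window passed, with 0.839 and 0.80 against 0.667 and 0.714. At the other regions that did not pass, the calling libraries did not all clear the limits, so no difference can be stated. All 8 regions were chosen by these same calls, so passing the limits is not separate evidence of a difference. The SOX2-only region next to Klf4, for example, had relative pileups of 0.60 and 0.786, while a SOX17FNV pileup had to reach 0.818 and 0.708 to be called. All limits are approximate, since each was read at the nearest summit. For the region 62.6 kb upstream of Klf4 those summits were 27526 and 55808 bp away.

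**Figure D2:**
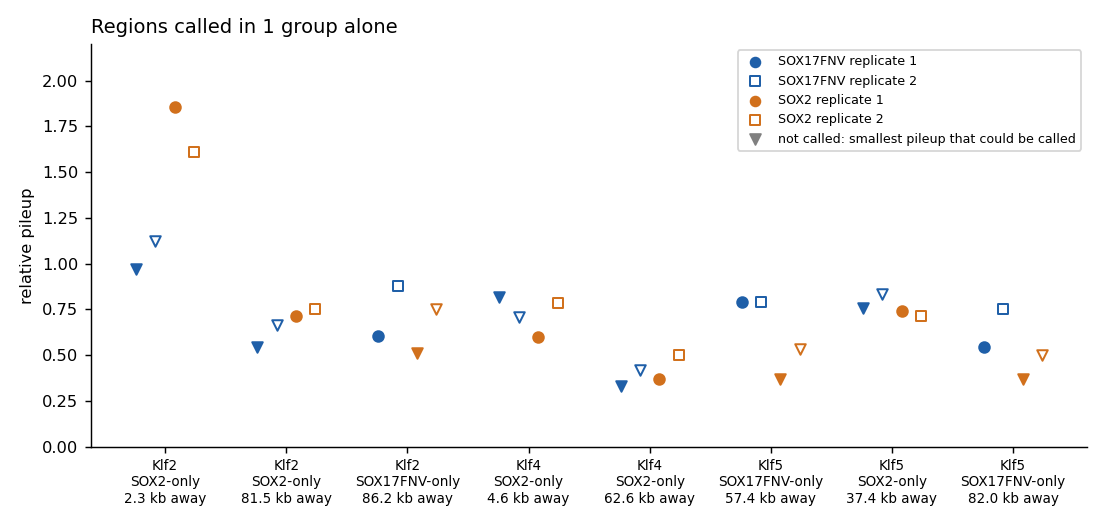
Relative pileup (y axis) of the 8 regions called in both libraries of 1 group and in neither of the other, named by gene, group and distance from the gene (x axis). Circles and squares are libraries that called the region, and triangles give the smallest pileup that could have been called in the libraries that did not. The SOX2-only region 2.3 kb from Klf2 has values of 1.86 and 1.61 above limits of 0.970 and 1.12.

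Downstream of Klf4, a region 61.9 kb beyond the 3′ end had lower relative pileups in both SOX17FNV libraries, by more than the spread of the libraries. Between 40 and 80 kb beyond the 3′ end there were 9 regions, of which 6 were called in every library. SOX17FNV was lower with groups apart at 3 of the 6, against 18.4% of all shared regions. At 1 of these 3 the nearest values of the groups were 1.85 and 1.86, and at another 0.636 and 0.679. The one at 61.9 kb (55463392 to 55465242) had pileups of 46 and 33 with SOX17FNV and 66 and 60 with SOX2. Its relative pileups were 1.39 and 1.38 (mean 1.38 ± 0.0134) against 1.89 and 2.14 (mean 2.01 ± 0.182; SD, n = 2). The log2 ratio was -0.54, near the 5th percentile of all shared regions, -0.53. Scaled within chromosome 4 it was -0.55. From the deposited fold enrichments it was -0.31, and the groups then overlapped.

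The next regions toward the gene were close to one another. At 51.1 kb (55475365 to 55476065) the pileups were 61 and 33 with SOX17FNV and 65 and 52 with SOX2, a log2 ratio of -0.22. SOX17FNV replicate 1 lay within 0.01 of the SOX2 libraries in relative pileup there (1.85 against 1.86 and 1.86) and replicate 2 at 1.38. At 48.5 kb (55477041 to 55478657) they were 83 and 49 against 87 and 69, the highest pileups of the window in every library but SOX17FNV replicate 2, with a log2 ratio of -0.13 and groups that overlapped. At 45.8 kb (55480288 to 55481359) they were 61 and 49 against 70 and 57, with a log2 ratio of -0.05 and again an overlap. These 3 regions lay within 5995 bp, and their summits had local backgrounds of 13.3 to 34.3. They share that background and are not independent of each other.

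The outer regions of the stretch were low. At 40.6 kb (55486070 to 55486535) the pileups were 21 and 15 against 24 and 19, with relative pileups of 0.636 and 0.625 against 0.686 and 0.679. At 75.6 kb (55450974 to 55451572) they were 29 and 14 against 29 and 21, with a log2 ratio of -0.14 and an overlap. The log2 ratio was below 0 at 6 of 6 regions, against 44.8% of all shared regions. The median over the stretch was -0.13 (-0.14 scaled within the chromosome), and it was -0.40 without SOX17FNV replicate 1, -0.081 with SOX17FNV replicate 2 left out and -0.23 with SOX2 replicate 2 left out. From fold enrichments 3 of the 6 were below 0 and the median was -0.0057.

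**Figure D3:**
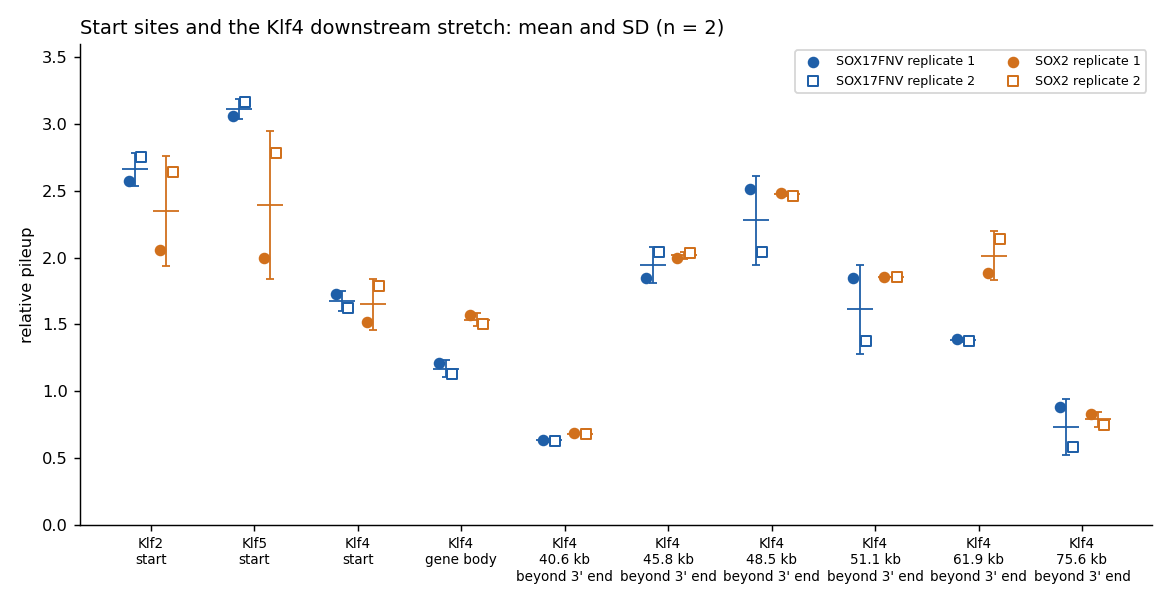
Relative pileup (y axis) in each library at the start regions of Klf2, Klf5 and Klf4, in the Klf4 gene body and at the 6 shared regions 40 to 80 kb beyond the 3′ end of Klf4 (x axis); horizontal marks are group means and bars the SD (n = 2). The SOX17FNV libraries lie below the SOX2 libraries in the gene body and at 61.9 kb, while the groups overlap at the starts of Klf2 and Klf4.

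Within Klf4 itself, the region over the gene body (55530019 to 55531925) was also lower in the SOX17FNV libraries. The pileups were 40 and 27 against 55 and 42, and the relative pileups 1.21 and 1.12 against 1.57 and 1.50, a log2 ratio of -0.39. From fold enrichments the log2 ratio was -0.20. The peaks were weak, with a -log10 q of 2.41 and 2.03 against 2.86 and 4.26. This region stands next to the start region, where the log2 ratio was 0.03. The opposite case lay 11.6 kb beyond the 3′ end (55514542 to 55515519), the region of the window with the best mean percentile, 97.8. Its pileups were 64 and 61 against 62 and 54, a log2 ratio of 0.26, and the groups did not overlap, though they did when scaled within the chromosome.

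Over the whole Klf4 window, both SOX17FNV libraries lay below both SOX2 libraries at 4 of 10 shared regions, against 18.4% of all shared regions, and above at 1, against 24.1%. Scaled within chromosomes the counts were 4 and 0, against 19.8% and 21.5%. The median log2 ratio was -0.13, the percentile 8.42 among the windows of 16095 protein-coding genes with at least 5 shared regions, whose median was 0.06. Leaving out SOX17FNV replicate 1, SOX17FNV replicate 2 or SOX2 replicate 2 gave -0.25, -0.072 and -0.23. The 4 lower regions became 7 with either SOX17FNV library left out, 6 with SOX2 replicate 1 left out and 8 with SOX2 replicate 2 left out, where groups of fewer libraries overlap less easily. The 1 higher region became 0 with SOX2 replicate 1 left out and 3 with SOX2 replicate 2 left out. From fold enrichments no region of the window had groups apart, and the share of all shared regions with that measure is not given. The local background, by which a fold is divided, also differed there. At Klf4 summits its median was 2.22 and 1.90 times that of all shared regions with SOX17FNV and 3.03 and 1.97 times with SOX2, and its part in the result was not tested.

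The Klf2 window differed little between the groups, and the sign of its median log2 ratio changed with the libraries used. Both SOX17FNV libraries were higher at 4 of 17 shared regions, against 24.1% of all shared regions, and lower at 1, against 18.4%. Scaled within chromosomes the counts were 3 and 3, against 21.5% and 19.8%, so the higher counts were near the background. With a library left out they were 7 and 6 (SOX17FNV replicate 1), 4 and 6 (SOX17FNV replicate 2) and 6 and 6 (either SOX2 library). Groups of fewer libraries overlap less easily, so the shares above do not apply to these counts. The median log2 ratio was 0.09, against 0.08 for all shared regions of chromosome 8, and it turned to -0.016 when SOX17FNV replicate 2 was left out and to -0.018 when SOX2 replicate 1 was, and was 0.036 when SOX2 replicate 2 was. Of the 5 strongest regions, 3 lay at the ends of other genes: Fam32a, Ap1m1, which encodes a clathrin adaptor subunit, and Eps15l1. The Ap1m1 region (72239314 to 72240785) was the strongest, with pileups of 111 and 74 against 83 and 85. It was also among the 3 highest log2 ratios of regions with groups apart, with a log2 ratio of 0.26 and groups that overlapped when scaled within the chromosome.

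The remaining strong region lay 46.4 kb before Klf2 (72270408 to 72272690), with pileups of 58 and 55 against 66 and 45 and groups that overlapped. The largest log2 ratio was 0.42, inside Eps15l1 60.5 kb from Klf2 (72382186 to 72382895), with pileups of 38 and 30 against 29 and 27. A region 10.3 kb before Klf2 (72307541 to 72308731) had 34 and 25 against 32 and 26, a log2 ratio of 0.17. The region with SOX17FNV lower lay in Eps15l1 at 25.9 kb (72347580 to 72348184), with 25 and 18 against 28 and 29 and a log2 ratio of -0.27. These last 3 regions kept their groups apart when scaled within chromosome 8.

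The Klf5 window was higher in the SOX17FNV libraries at most shared regions, and so was chromosome 14. Both SOX17FNV libraries lay above both SOX2 libraries at 17 of 21 shared regions, against 63.9% of the 2520 shared regions of chromosome 14, and below at none. The log2 ratio was above 0 at 21 of 21, from 0.01 to 0.70, with a median of 0.45. Of all shared regions 44.8% had a log2 ratio below 0. The median over chromosome 14 was 0.37, so values above 0 were common along it. Once scaled within the chromosome, 15 of the 21 were above 0, and no matching share of all shared regions is given. Scaled within the chromosome, the window's median was 0.07, with 4 of 21 regions higher and 3 lower, against 21.5% and 19.8% of all shared regions, so neither count stood above the background. Its percentile among the windows of all genes went from 98.7 to 62.2 with that scaling. Without SOX2 replicate 2 the unscaled median was 0.28. The local background at Klf5 summits was 1.98 and 1.81 times that of all shared regions with SOX17FNV and 1.65 and 1.04 times with SOX2. From fold enrichments the median was -0.07, with 1 region higher and 4 lower. No share of all shared regions is given for fold enrichments, so these counts cannot be set against a background. A difference in the number of copies of chromosome 14 and a difference in accessibility along it cannot be told apart here.

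Single regions around Klf5 had log2 ratios between 0.01 and 0.70, within the 5th to 95th percentile of chromosome 14, -0.23 to 0.90. The 3 highest log2 ratios, 0.70, 0.70 and 0.69, belonged to regions at 18.9 kb below the gene (99277673 to 99279789), 19.9 kb above it (99333276 to 99334447) and inside Pibf1 (99230447 to 99231378). Their pileups were 46 and 28 against 30 and 20, 49 and 32 against 41 and 18, and 38 and 22 against 22 and 18. Scaled within the chromosome the log2 ratios were 0.33, 0.32 and 0.32, and the groups stayed apart at the first and the third. A strong Pibf1 region 78.5 kb from Klf5 (99219413 to 99220183) had 46 and 34 against 28 and 27, and 0.31 after scaling.

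The strong region 10.9 kb above Klf5 (99324325 to 99325252) had the lowest log2 ratio of the window. Its pileups were 65 and 62 with SOX17FNV against 77 and 64 with SOX2. The log2 ratio was 0.01, and -0.36 within chromosome 14, where both SOX17FNV libraries were the lower ones. Regions at 26.2 kb (99339602 to 99341191) and 52.6 kb (99365993 to 99367550) had log2 ratios of 0.25 and 0.45, or -0.12 and 0.07 within the chromosome, with groups that then overlapped.

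**Figure D4:**
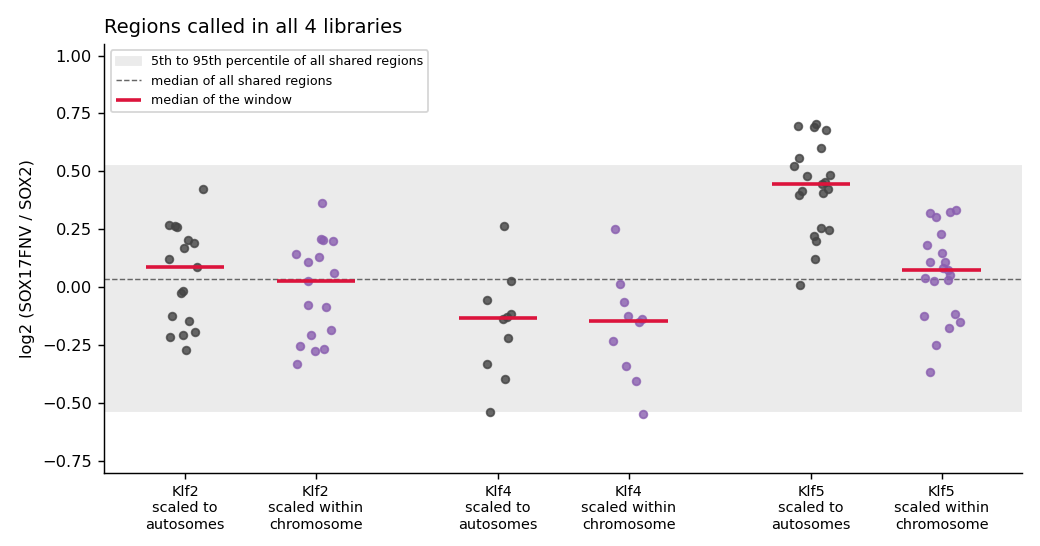
Log2 ratio of SOX17FNV over SOX2 relative pileup (y axis) for each shared region of the 3 windows, 1 point a region, scaled to all autosomes (dark) and within the chromosome (purple); red bars are window medians, the grey band spans the 5th to 95th percentile of all shared regions and the dashed line is their median. The Klf5 median moves from 0.45 to 0.07 with the scaling, while the Klf4 median stays at -0.13 and -0.14.

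The other 14 KLF genes gave the family's range. With a RefSeq start, 10 of 11 had the region over it called in all 4 libraries, and Klf12 had it called in none. For Klf10, Klf14 and Klf16 the region was picked as for Klf5, which fixed its calls, and it was called in all 4 libraries. Groups overlapped at 11 of these 13 regions. Klf11, a gene induced by TGF-beta, was higher in the SOX17FNV libraries (relative pileups 2.24 and 2.38 against 2.2 and 1.93). Klf6, a widely expressed member, was lower (1.91 and 1.88 against 2.4 and 2.04). Both calls also held when scaled within the chromosome, and 1 of 13 in a direction is below the shares of all shared regions given above. In windows with the same flanks of 100 kb these genes had 15 SOX17FNV-only and 14 SOX2-only of 493 regions, against 3.06% and 4.09% of all regions. Window widths differed with the gene spans. Klf12, which like Klf5 lies on chromosome 14, had 5 and 1 of its 60 regions. Its gene span, 99866181 to 100285891, is longer than that of Klf5, so its window was wider. The lowest starts were those of Klf17, with relative pileups of 1.0 and 0.50 against 0.629 and 0.679, and of Klf14, with 0.909 and 0.958 against 0.943 and 1.14.

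**Figure D5:**
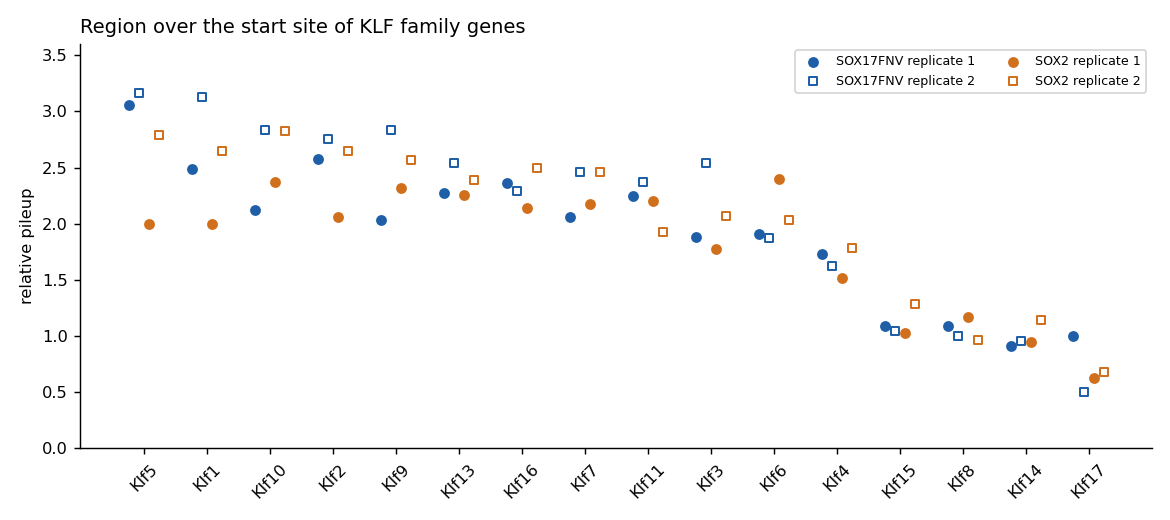
Relative pileup (y axis) in each library of the region over the start of 16 KLF genes (x axis; near a gene end for Klf5, Klf10, Klf14 and Klf16), ordered by the mean over the 4 libraries. Klf5 and Klf2 are among the 4 highest and Klf4 is the twelfth, and the libraries of both groups overlap at most genes.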

How the data were processed

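The members and gene lists were chosen with earlier results of these data known. The authors deposited 1 MACS2 peak list per library. Bowtie2, SAMtools and MACS2, and the build mm10, come from the submitters' processing notes, with versions, settings and any read shift not given in the sources used here. Every peak of a deposited list has a fold enrichment (a ratio of summit pileup to local background), the −log10 of a p-value and of a q-value, and a score of 10 times the −log10 q, rounded down for at least 99.9% of summits; the fold and q are the authors' own values per peak. The files hold no read totals.

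The pileup was solved as the whole number that gives both the deposited fold and the Poisson p. It matched the −log10 p within 0.001 for 100% of summits, and the code was checked on simulated data. The lowest pileups called were 11, 10, 12 and 13 (SOX17FNV 1 and 2, SOX2 1 and 2), which bounds what each list can show. Gene spans, starts and sequences came from RefSeq tables for GRCm38.p6; for Klf5, Klf10, Klf14 and Klf16 the region within 1 kb of either gene end that most libraries called stood in for the start region. A region counted as over a start within 1 kb. Regions named are the start region, all group-specific regions, the 5 strongest shared regions of a window, the 3 most extreme in each direction with groups apart, and the shared regions 40 to 80 kb beyond Klf4. Alternatives varied the q threshold, list length, coverage of a region, window, scaling, measure and libraries. Python 3.11.15, SciPy 1.17.1 and pandas 2.3.3 were used.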

Additional observations from a re-analysis of the deposited data

How the results depend on the processing

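SOX17FNV-only regions of the 3 windows numbered 3 as reported, 5 when peaks had to cover most of a region, 0 in windows of 50 kb, and 5 to 15 with 1 library left out. They numbered 2 with −log10 q of at least 5, both in the Klf2 window, and 3 with at least 10, all in the Klf5 window. None of the 3 reported regions reached a −log10 q of 5 in both calling libraries, so these were other regions. SOX2-only regions numbered 5, and 0 with −log10 q of at least 5, 0 with at least 10, 8 with the coverage rule, 3 in windows of 50 kb, and 6 to 19 with 1 library left out. The Klf2 window's log2 ratio of 0.09 became 0.16 with −log10 q of at least 5, -0.023 in windows of 50 kb, 0.025 within the chromosome, 0.019 from fold enrichments and -0.018 to 0.11 (-0.016 without SOX17FNV replicate 2) with 1 library left out. The Klf4 window's became -0.084 in windows of 50 kb, -0.0057 from folds and -0.25 to -0.072 with 1 library left out, and the Klf4 distal stretch -0.40 to -0.081. The Klf5 window's became 0.073 within the chromosome, -0.071 from folds and 0.28 to 0.47 with 1 library left out. Of the start regions, folds gave 0.41 at Klf2, 0.24 at Klf4 and -0.040 at Klf5, scaling within the chromosome gave 0.027 at Klf5, and leaving out 1 library gave -0.042 to 0.32 at Klf2, -0.14 to 0.092 at Klf4 and 0.11 to 0.58 at Klf5. Fold enrichments divide by the local background by construction, and group-specific counts rise by definition where a library is left out. The cause of the other shifts was not tested.

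The libraries share replicate numbers, and same-numbered libraries deviated together (correlation 0.23 over 57783 shared regions), but the labels do not say that a number marks a pair. Blocking by number left each log2 ratio as it was by construction, 0.45 at the Klf5 window and -0.13 at the Klf4 window, for example. Counts of regions higher or lower in both same-numbered pairs were 6 and 5 for Klf2, 1 and 4 for Klf4 and 17 and 0 for Klf5. The shares given for groups apart do not apply to these pair counts. Counts of regions with groups apart under other settings, and the callable limits scaled within the chromosome, were added after seeing the data. Except for scaling within the chromosome, no share of all shared regions is given for those settings. The 17 higher Klf5 regions became 4 within the chromosome, 1 from folds, 6 with −log10 q of at least 5, 1 with at least 10, 8 with the coverage rule and 11 in windows of 50 kb. The 4 lower Klf4 regions became 2 with −log10 q of at least 5, 0 with at least 10, 2 in windows of 50 kb, 0 from folds and 6 with lists of equal length. The Klf2 counts of 4 higher and 1 lower became 1 and 0 with −log10 q of at least 5 and 0 and 0 with at least 10. Lists of equal length gave 3 SOX17FNV-only and 4 SOX2-only regions.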
